A study of Mus musculus with 12 samples.

Results

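The insulin-like growth factor (IGF) system was followed here through 9 genes of 17734 in the expression table. They were 6 IGF binding proteins (Igfbp2, Igfbp3, Igfbp4, Igfbp5, Igfbp6 and Igfbp7), the ligands Igf1 and Igf2, and the receptor Igf1r. The genes were picked by symbol, with Igfbp3 as the starting point because its level was low in both colitis groups. The colitis differences of these genes are therefore described without a test. Counts of calls for them stand only in the closing section, where nothing is read from them. Rectal RNA came from 12 male C57BL/6 mice, 3 in each of 4 groups. Normal mice drank water, and colitis mice drank dextran sulfate sodium (DSS), a chemical irritant of the colonic epithelium, for 7 days. The other two groups were normal mice receiving berberine (BBR), a plant alkaloid given by mouth, and colitis mice receiving both DSS and BBR. The labels give 6 days of BBR, whereas the methods of the paper describe daily doses until day 7. No gene was altered in any group, and the labels call the tissue colorectum. DSS colitis is an acute chemical injury model.

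In the IGF system, IGF1 and IGF2 are secreted ligands that activate the receptor tyrosine kinase IGF1R, which signals through insulin receptor substrates to PI3K and Akt. The binding proteins hold the ligands in extracellular fluid and prolong their life or keep them from the receptor, and proteases such as PAPP-A release the ligand by cutting them. In the gut, IGFs are known mainly as growth factors made by mesenchymal cells that act on epithelium and muscle.

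Levels are given as FPKM (fragments scaled to transcript length and sequencing depth), which can be compared between genes. Differences are given as log2 fold changes of FPKM + 0.1 with their standard errors (SE) from limma, a linear model fitted across all 15315 genes with a mean of at least 0.1 FPKM. All 9 genes entered the fit. Adjusted p-values are Benjamini-Hochberg values over all of these genes. Beside them stand exact two-sided permutation tests of single genes, whose smallest possible p with 3 mice against 3 is 0.1.

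The start-site windows of 4 binding protein genes are shown because their transcripts took different courses in colitis and under BBR. Igfbp3 was low in every colitis mouse and Igfbp2 in all of them but 1, Igfbp6 was low in colitis mice without BBR, and Igfbp4 was not low in either. Each window runs from 250 bases before to 50 bases after a RefSeq start (GRCm38.p6), 5′ to 3′ on the gene's strand, with capitals marking matches to searched letters. The searched letters were TATAAA (the TATA box), GGGCGG (the GC box), CACGTG (an E-box that clock factors bind), TAGGTCA (the core of the ROR element), TGANTCA (the AP-1 site) and CTTTGAT (the TCF/LEF site), each on both strands. Of the Igfbp2 windows, the first by position is shown.
Igfbp3, chr11:7213874-7214173, minus strand: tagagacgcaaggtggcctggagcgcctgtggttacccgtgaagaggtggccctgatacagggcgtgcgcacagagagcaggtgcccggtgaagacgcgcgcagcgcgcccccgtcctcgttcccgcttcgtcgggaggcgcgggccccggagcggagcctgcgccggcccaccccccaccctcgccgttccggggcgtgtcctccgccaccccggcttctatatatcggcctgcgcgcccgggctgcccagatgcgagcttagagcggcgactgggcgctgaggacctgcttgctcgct
Igfbp2, chr1:72824230-72824529, plus strand: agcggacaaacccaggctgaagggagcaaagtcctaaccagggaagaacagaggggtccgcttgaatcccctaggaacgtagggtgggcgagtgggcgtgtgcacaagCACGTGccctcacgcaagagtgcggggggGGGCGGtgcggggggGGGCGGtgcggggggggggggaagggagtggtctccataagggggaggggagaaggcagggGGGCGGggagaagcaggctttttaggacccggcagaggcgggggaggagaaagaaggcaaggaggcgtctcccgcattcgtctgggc
Igfbp6, chr15:102143936-102144235, plus strand: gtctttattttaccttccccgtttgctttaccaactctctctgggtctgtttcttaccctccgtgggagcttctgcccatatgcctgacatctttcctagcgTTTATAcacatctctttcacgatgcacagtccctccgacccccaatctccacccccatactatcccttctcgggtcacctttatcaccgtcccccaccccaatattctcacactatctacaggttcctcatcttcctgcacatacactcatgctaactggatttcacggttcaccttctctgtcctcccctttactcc
Igfbp4, chr11:99040994-99041293, plus strand: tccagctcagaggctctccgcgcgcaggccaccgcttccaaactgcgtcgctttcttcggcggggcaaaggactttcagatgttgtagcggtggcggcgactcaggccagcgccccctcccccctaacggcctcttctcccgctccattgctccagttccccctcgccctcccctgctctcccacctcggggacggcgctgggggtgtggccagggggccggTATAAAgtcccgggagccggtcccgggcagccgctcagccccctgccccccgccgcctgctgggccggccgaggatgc

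None of the searched letters occurs in the Igfbp3 window, which holds 37 CpG dinucleotides and has a GC content of 71.7%. The search took exact letters only. The Igfbp3 window holds the stretch tatatat shortly before the start, so the lack of TATAAA does not mean that it lacks a TATA-like element. The median over 32851 mouse windows of the same length is 7 CpG dinucleotides and 52.7% GC. The Igfbp2 window holds CACGTG, found in 7.15% of all windows, and 3 GC boxes, whose letters occur in 35.7% of all windows. The Igfbp4 window holds TATAAA 28 bases before the start, and the Igfbp6 window holds the same letters on the other strand 148 bases before the start. TATAAA occurs in 13.6% of all windows, TAGGTCA in 2.61%, TGANTCA in 7.81% and CTTTGAT in 3.73%. In the RefSeq gene order the next coding gene after Igfbp2 is Igfbp5, and the coding gene before Igfbp3 is Igfbp1, which was not analysed here.

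Before the results, 4 mice need separate mention. The mice numbered 4, 1 in each group, had summed FPKM of 482194 to 504337 and 872 to 1086 genes listed at 0. The other 8 mice had sums of 696286 to 765876 and 1332 to 1926 genes at 0. The spacing of low values in 2211 single-transcript genes best matched 17900000 to 19800000 reads in the mice numbered 4. In the others it best matched 14900000 to 16000000 reads. The same match took 40 to 70 bases off the transcript length in the mice numbered 4 and 240 to 290 bases off in the others. The mice may thus not share the same length scale, which was not tested. These read numbers hold only if the values are FPKM. A gene of 2000 bases at the limit of 3 reads would then stand at 0.106 to 0.117 FPKM, or at 0.0777 to 0.087 FPKM among the mice numbered 4. These limits cover counting error only, and read counts per gene were not used here. Igfbp2, Igfbp5, Igf2 and Igf1r were highest in the mouse numbered 4 of every group, so values that rest on these mice are also given without them. Their part in the results was not tested. Colon epithelial markers were high in all mice (12 genes, summed FPKM 13310 to 21930), whereas squamous epithelial markers summed to at most 8.56 FPKM and Krt4 was at 0 in all normal mice.

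In normal rectum the binding proteins were far more abundant than the ligands and the receptor. Igfbp7, a low-affinity IGF binding protein of vessel walls and connective tissue, stood highest at 87.6 ± 4.80 FPKM (SD, n = 3). It was followed by Igfbp4 (26.3 ± 15.0), Igfbp3 (17.3 ± 3.51), Igfbp5 (16.8 ± 10.4), Igfbp6 (13.3 ± 5.76) and Igfbp2 (13.2 ± 3.42). These 5 genes overlapped with their neighbours in the order, whereas Igfbp7 lay above Igfbp4 in all values. Igf2 (1.53 ± 0.735), Igf1r (1.52 ± 0.803) and Igf1 (1.33 ± 0.971) came last, below every value of Igfbp2, and overlapped with one another. In colitis mice Igfbp7, Igfbp4 and Igfbp5 overlapped at the top, and the other members lay below them without overlap with Igfbp5.

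**Figure D1:**
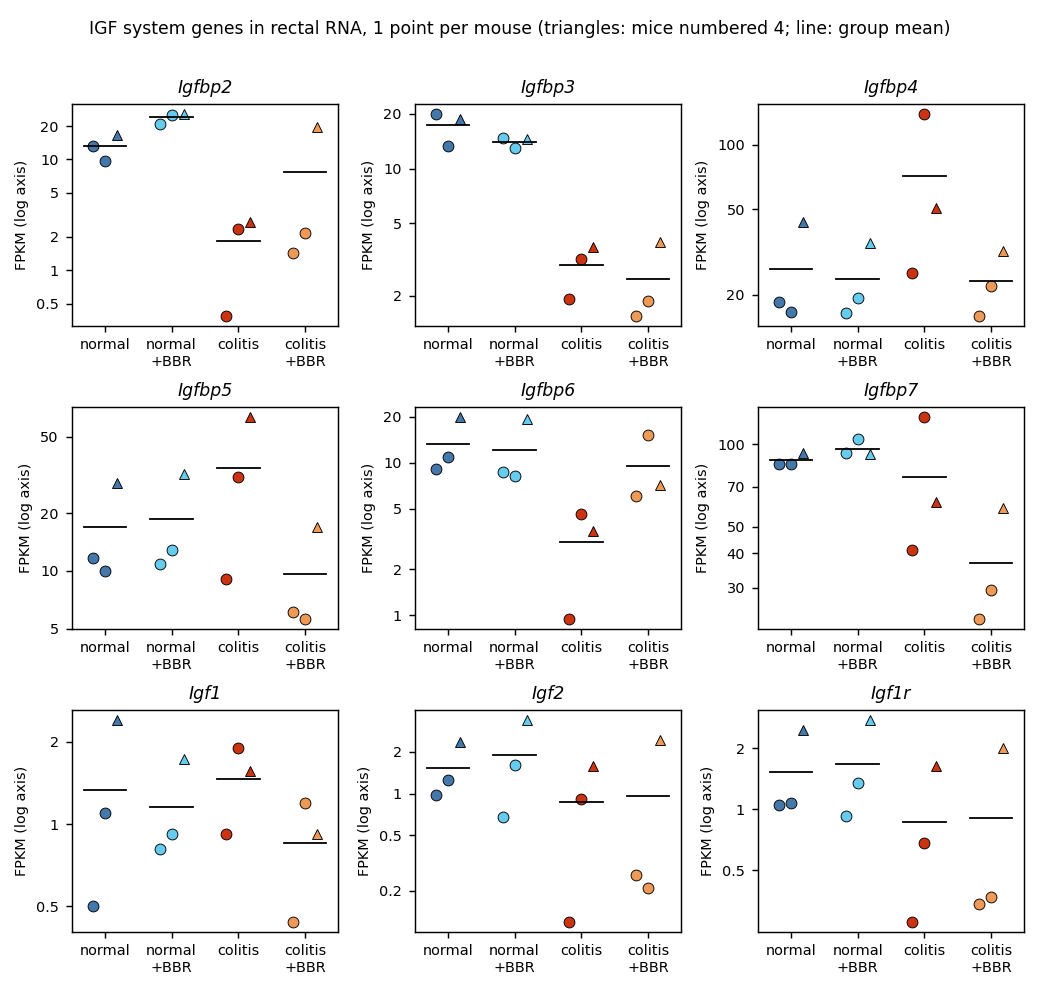
FPKM of the 9 IGF system genes on log axes, with 1 point per mouse, triangles for the mice numbered 4 and a line at each group mean. Igfbp3 stood between 12.91 and 19.91 FPKM in all 6 mice without colitis and between 1.55 and 3.96 in all 6 colitis mice.

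Igfbp3 encodes the main carrier of IGFs in blood, which also acts locally in tissues. Its level was 19.91, 13.30 and 18.63 FPKM in normal mice numbered 1, 3 and 4, and 1.91, 3.16 and 3.71 in colitis mice numbered 1, 2 and 4. The groups did not overlap, and the log2 fold change was -2.55 (SE 0.35). In mice receiving BBR, Igfbp3 was 14.67, 12.91 and 14.49 FPKM without colitis and 1.55, 1.87 and 3.96 with colitis, a log2 fold change of -2.58 (SE 0.35). Without the mice numbered 4 these differences were -2.68 and -2.94. Since Igfbp3 was chosen for these differences, they are a description, and in bulk RNA fewer cells of a type and less RNA per cell cannot be told apart.

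Igfbp2, a binding protein with a preference for IGF2, was 13.25, 9.73 and 16.56 FPKM in normal mice and 0.39, 2.36 and 2.74 in colitis mice (log2 fold change -3.11, SE 0.85). In mice receiving BBR it was 20.83, 25.41 and 25.57 FPKM without colitis and 1.42, 2.19 and 19.60 with colitis (log2 fold change -2.55). Every colitis mouse lay below every mouse without colitis except the colitis mouse numbered 4 that received BBR, whose 19.60 FPKM lay above all 3 normal mice. Without the mice numbered 4 the differences were -3.38 without BBR and -3.63 with BBR. Igfbp6, whose protein binds IGF2 in preference to IGF1, was 9.13, 10.84 and 19.85 FPKM in normal mice and 0.95, 4.58 and 3.57 in colitis mice (log2 fold change -2.27, SE 0.57). These groups did not overlap.

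In colitis without BBR the groups of the other members overlapped. Igfbp4, which inhibits IGF action until proteases cut it, was 18.63, 16.60 and 43.59 FPKM in normal mice and 25.35, 138.69 and 50.59 in colitis mice (log2 fold change 1.24, SE 0.57). Igfbp5, a binding protein that adheres to extracellular matrix, was 11.69, 9.99 and 28.85 FPKM in normal mice and 9.09, 30.86 and 63.27 in colitis mice (log2 fold change 0.80, SE 0.70). For both genes the groups overlapped and the colitis values were widely spread, and Igfbp4 had a value of 0.59 without colitis mouse 2 and 1.81 without colitis mouse 1. The log2 fold changes of Igfbp7, Igf1, Igf2 and Igf1r were -0.36, 0.31, -1.08 and -0.91, with overlapping groups. Without the mice numbered 4 those of Igfbp5, Igf1, Igf2 and Igf1r were 0.63, 0.75, -1.34 and -1.09. Leaving out 1 mouse gave ranges of -0.80 to 0.00 for Igfbp7 and -0.20 to 0.83 for Igf1. In mice receiving BBR, the colitis differences of Igfbp4, Igfbp5, Igfbp6 and Igfbp7 were 0.00, -0.97, -0.35 and -1.49. Without the mice numbered 4 that of Igfbp6 changed sign to 0.19. Igfbp2 and Igfbp5, neighbours on the chromosome, had log2 fold changes of opposite sign in colitis without BBR and both negative ones with BBR, and without colitis mouse 4 the Igfbp5 value of 0.80 was 0.16.

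The groups did not overlap for 3 of the 9 members in colitis against normal mice, all lower in colitis, beside 29.3% of all tested genes in either direction. In mice receiving BBR, 3 of 9 did not overlap between colitis and normal (Igfbp2, Igfbp3 and Igfbp7, all lower), beside 20.2% of all genes. Nothing is read from these counts, because the same contrasts chose the members.

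**Figure D2:**
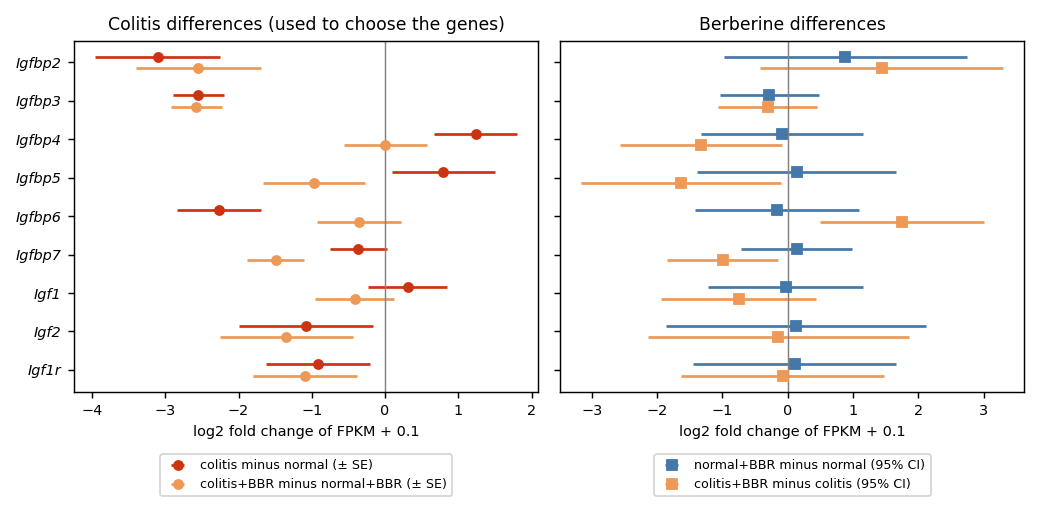
Log2 fold changes of FPKM + 0.1 for the 9 members, on the left for colitis with and without BBR (bars, SE) and on the right for BBR in normal and in colitis mice (bars, 95% confidence interval). On the right, the intervals of Igfbp4, Igfbp5, Igfbp6 and Igfbp7 in colitis mice lie to one side of 0 before adjustment over all genes.

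The make-up of the binding protein transcripts was compared beside their sum. The 6 binding proteins summed to 174.5 ± 40.5 FPKM in normal mice (SD, n = 3), 188.6 ± 27.6 in normal mice receiving BBR, 189.6 ± 113 in colitis mice and 89.6 ± 43.5 in colitis mice receiving BBR. The range in colitis mice, 78.66 to 305 FPKM, took in that of normal mice. Igfbp3, Igfbp2 and Igfbp6 made up 10.1%, 7.54% and 7.42% of this sum in normal mice and 1.82%, 0.916% and 1.55% in colitis mice. Igfbp4 went from 14.3% to 35.0%, with ranges of 11.4% to 19.8% and 27.3% to 45.5%. In colitis mice receiving BBR, Igfbp6 made up 12.1% (5.17% to 20.0%), above its range in colitis mice (1.21% to 1.93%), while Igfbp3 made up 2.72%. These shares follow from the same values as the levels and are a description.

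**Figure D3:**
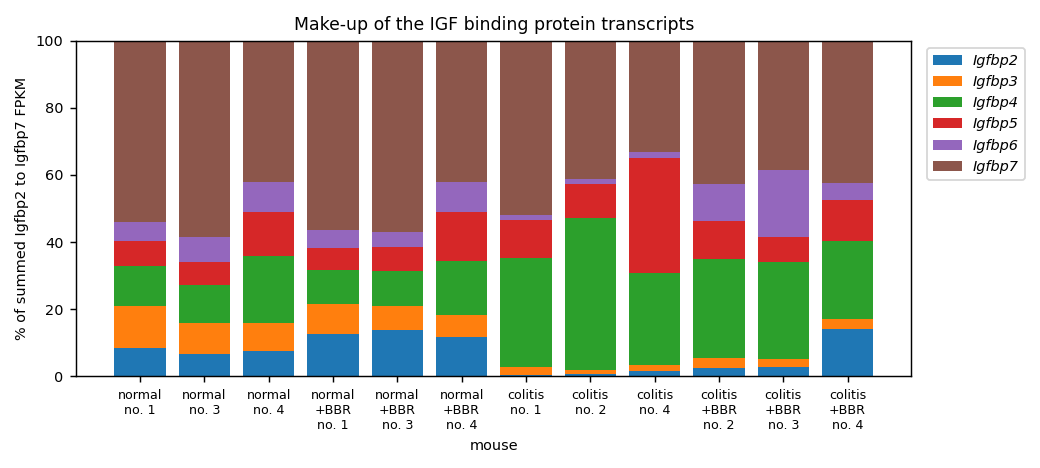
Percent of the summed Igfbp2 to Igfbp7 FPKM taken by each gene, with 1 bar per mouse. Igfbp3 takes 8.44% to 12.6% in normal mice and 1.04% to 2.43% in colitis mice, while Igfbp4 takes 27.3% to 45.5% in colitis mice.

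BBR in normal mice was a comparison that the choice of members did not use. None of the 9 members passed the limit in limma, none had an unadjusted p of at most 0.05 (1.36% of all genes had one), and 0% of all tested genes had an adjusted p under 0.05. Igfbp2 was the single member whose groups did not overlap, beside 9.62% of all genes, with 13.2 ± 3.42 FPKM in normal mice and 23.9 ± 2.69 in normal mice receiving BBR (SD, n = 3). Its log2 fold change was 0.88 (95% confidence interval -0.98 to 2.74, limma adjusted p = 1.00, exact permutation p = 0.1), and 1.012 without the mice numbered 4. Igfbp3 differed by -0.28 (95% confidence interval -1.04 to 0.48) and Igfbp7 by 0.14 (-0.71 to 0.99). The log2 fold changes of the other 6 members lay between -0.17 and 0.14, smaller than their SE. The intervals of Igf2, -1.87 to 2.12, and Igf1r, -1.44 to 1.65, leave room for differences of over 1 on the log2 scale.

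BBR in colitis mice gave larger differences, in both directions, but none that passed adjustment. By limma 0 of 9 members had an adjusted p under 0.05, as did 0% of all genes, while the unadjusted p was at most 0.05 for 4 of 9, beside 6.39% of all genes. The values of 1 member, Igfbp6, did not overlap, beside 7.08% of all genes. The members were measured in the same mice and are not independent of one another.

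Igfbp6 was 6.08, 15.29 and 7.14 FPKM in colitis mice receiving BBR, against 0.95, 4.58 and 3.57 without it. The lowest treated mouse stood above the highest untreated one, and the treated values overlapped with the 9.13 to 19.85 FPKM of normal mice. The log2 fold change was 1.75 (95% confidence interval 0.50 to 3.01, unadjusted p = 0.0103 and adjusted p = 0.568 by limma, exact permutation p = 0.1). Without the mice numbered 4 it was 2.14. The interaction, which asks whether the BBR difference itself differed between colitis and normal mice, was 1.92 for Igfbp6 (SE 0.81, unadjusted p = 0.0364 and adjusted p = 1.00 by limma). It was the 1 member of 9 with an unadjusted interaction p of at most 0.05, beside 2.42% of all genes, and 0% of genes passed adjustment.

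Igfbp4, Igfbp5 and Igfbp7 had the opposite sign. Igfbp4 was 16.02, 21.93 and 31.98 FPKM in colitis mice receiving BBR, against 25.35, 138.69 and 50.59 in colitis mice (log2 fold change -1.33, 95% confidence interval -2.56 to -0.09, limma adjusted p = 0.733). Igfbp5 was 6.10, 5.63 and 16.99 FPKM against 9.09, 30.86 and 63.27 (log2 fold change -1.63, interval -3.16 to -0.10, limma adjusted p = 0.738). Igfbp7 was 23.13, 29.44 and 58.47 FPKM against 40.97, 125.31 and 61.30 (log2 fold change -0.99, interval -1.84 to -0.14, limma adjusted p = 0.675). In all 3 genes the groups overlapped and colitis mouse 1 was the lowest of the untreated mice. Exact permutation p was 0.2 for each. Without colitis mouse 2 the log2 fold changes of Igfbp4 and Igfbp7 were -0.68 and -0.55, and without colitis mouse 4 that of Igfbp5 was -0.99. Their interaction values were -1.23, -1.77 and -1.13, each with an unadjusted p above 0.05.

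For Igfbp3 the values of colitis mice with and without BBR overlapped, with a log2 fold change of -0.31 and a 95% confidence interval of -1.07 to 0.46. Its low level in both of these groups was part of the choice, so this difference is a description. Igfbp2 had a log2 fold change of 1.44 (-0.42 to 3.30, limma adjusted p = 0.919, exact permutation p = 0.6), and this value rested on mouse 4 of the treated group. Without the mice numbered 4 it was 0.77. Without the treated mouse 4 alone it was 0.31. Among ligands and receptor, Igf1 differed by -0.75 (-1.94 to 0.44), Igf2 by -0.14 and Igf1r by -0.08, and the intervals of Igf2 (-2.14 to 1.85) and Igf1r (-1.63 to 1.47) were wide. Without the mice numbered 4 the values of Igf2, Igf1r and Igfbp5 were -0.50, -0.26 and -1.50.

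Igf1, Igf2 and Igf1r stood near 1 FPKM. Igf1, which mesenchymal cells and macrophages make, ranged from 0.50 to 2.40 FPKM in normal mice and from 0.92 to 1.90 in colitis mice. Igf2 was 0.97, 1.25 and 2.36 FPKM in normal mice, 0.12, 0.92 and 1.58 with colitis, and 0.26, 0.21 and 2.41 with colitis and BBR. Igf1r was 1.05, 1.07 and 2.45 FPKM in normal mice, 0.28, 0.68 and 1.64 with colitis, and 0.34, 0.37 and 2.01 with colitis and BBR. In both genes the highest value of each group belonged to the mouse numbered 4, at 2.13 to 10.3 times the mean of its 2 group mates for Igf2 and 2.31 to 5.66 times for Igf1r. The values of 0.12 to 0.26 FPKM for Igf2 lie close to the limit of 3 reads given above for a gene of 2000 bases. Across the 12 mice the levels of Igf2 and Igf1r correlated at r = 0.98, and at 0.97 for deviations from group means, which describes points that share their libraries and the contrast of the mice numbered 4.

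Marker genes of other cell types were summed beside the members. Beside the low Igfbp3, the summed FPKM of 14 smooth muscle markers ranged from 2219 to 4121 in normal mice, 3070 to 6585 in normal mice receiving BBR, 133.2 to 941.4 with colitis and 651 to 4400 with colitis and BBR. All 14 had negative log2 fold changes in colitis against normal mice (median -2.92), 13 of them with an unadjusted p of at most 0.05 and 0 with an adjusted p under 0.05 by limma. The 12 endothelial markers summed to 34.58 to 39.63 FPKM in normal mice, 11.23 to 32.84 with colitis and 11.22 to 24.46 with colitis and BBR, with 11 of 12 lower in colitis and none adjusted. The 12 fibroblast markers summed to 376.9 to 635.2, 215.6 to 835.5 and 216.5 to 336.2 FPKM in these groups, and 11 of 12 were lower in colitis mice (median -0.67, 4 with an unadjusted p of at most 0.05). Over all tested genes the median was -0.32, and the unadjusted p was at most 0.05 for 21.4%. Of these markers, Clec3b, named after its values were seen, passed the adjusted limit (23.4 FPKM in normal and 4.86 in colitis mice, log2 fold change -2.32, limma adjusted p = 0.0254). None of these marker genes was at 0 in all mice of a group. Igfbp6 differed in the same direction as smooth muscle markers under BBR in colitis, where 14 of 14 were higher (median 1.16). Their sums in treated mice 2, 3 and 4 were 686.8, 651 and 4400 FPKM, and only mouse 4, with an Igfbp6 level of 7.14, lay above the untreated mice. Of the 5 mesothelial markers 4 were also higher, with a median of 1.4 over the 5 and an unadjusted p of at most 0.05 for 2. Upk3b averaged 2.15 FPKM in treated and 0.0667 in untreated colitis mice, whereas Msln, the most abundant, averaged 1.46 and 5.93. Their sum was 13.39 FPKM in treated mouse 3, which had the highest treated Igfbp6 (15.29), 1.66 and 2.08 in the other treated mice, and 5.66, 12.83 and 1.33 in untreated ones. In the same comparison Igfbp4, Igfbp5 and Igfbp7 differed in the direction of the fibroblast markers, 9 of 12 of which were lower (median -0.47). The 3 that were higher, like Igfbp6, were Pi16, Mfap5 and Clec3b. Pi16 was 3.24 to 4.02 FPKM in treated and 0.90 to 3.12 in untreated colitis mice. Mfap5 was 4.69 to 6.40 against 1.94 to 4.09, and Clec3b averaged 9.57 and 4.86, with overlap. Macrophage markers were lower (10 of 10, median -1.07). So were endothelial markers (10 of 12, median -0.22) and pericyte markers, led by Rgs5 and Kcnj8 (5 of 6, median -0.16). The median over all tested genes was -0.09. The 8 granulocyte markers, led by S100a8 and S100a9, were all lower as well (median -1.98, 3 with an unadjusted p of at most 0.05), with sums of 46.75 to 490.2 FPKM in colitis mice and 2.99 to 210.5 with BBR. In colitis against normal mice 8 of 8 were higher (median 3.19, 2 past the adjusted limit, beside 1.08% of all genes). There the macrophage markers were higher as well (10 of 10, median 0.59), 4 of them with an unadjusted p of at most 0.05 by limma. The most abundant genes of these lists were Tagln and Acta2 for smooth muscle, Dcn and Col3a1 for fibroblasts, Pecam1 and Emcn for endothelium, and Lyz2 and C1qa for macrophages. The part of cell make-up in the members' values was not tested.

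**Figure D4:**
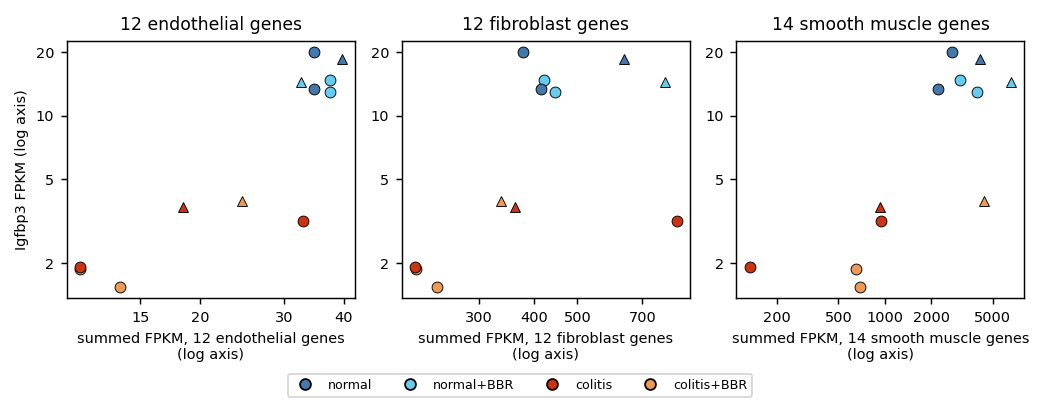
Igfbp3 FPKM against the summed FPKM of endothelial, fibroblast and smooth muscle marker genes, on log axes, with 1 point per mouse and triangles for the mice numbered 4. Colitis mice lie at 1.55 to 3.96 FPKM of Igfbp3, and their fibroblast sums run from 215.6 to 835.5 FPKM, with colitis mouse 2 at the upper end.

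Of 11942 genes with a mean of at least 1 FPKM, the 5 most like Igfbp3 across the 12 mice by Pearson's r of log2 levels were Asrgl1, Kazald1, Igsf10, Akr1b10 and Pecam1 (r from 0.958 to 0.963). Such values are set largely by the gap between mice with and without colitis. For deviations from group means, r was 0.867, 0.696, 0.898, 0.829 and 0.798. Pecam1, an adhesion molecule of endothelium, was 10.6 ± 0.236 FPKM in normal mice and 4.21 ± 1.43 in colitis mice (SD, n = 3). Of the other members Igfbp2 was most like Igfbp3, with r = 0.844 over all mice and 0.954 for deviations, and it ranked 731st.

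The other genes of the pathway formed a list of 65, of which 64 had a row and 60 were tested. In colitis against normal mice 49 had negative and 11 positive log2 fold changes, with a median of -0.34, close to the median of all tested genes (-0.32). By limma the unadjusted p was at most 0.05 for 15 of 60, beside 21.4% of all genes, and 24 of 60 had groups that did not overlap, beside 29.3%. Kazald1 alone passed the adjusted limit, beside 1.08% of all genes. Kazald1, a secreted protein with an IGFBP-type domain, was 6.27, 4.08 and 4.55 FPKM in normal mice and 0.84, 0.99 and 1.09 in colitis mice. Its log2 fold change was -2.22 (SE 0.40, limma adjusted p = 0.0289, exact permutation p = 0.1). The call was lost without colitis mouse 1, colitis mouse 2 or any 1 of the normal mice, and the count was 3 of 60 without the mice numbered 4.

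By role, all 6 genes of the growth hormone axis had negative log2 fold changes in colitis (median -0.72). Cish, a feedback inhibitor of cytokine receptors, was 12.48, 8.21 and 9.63 FPKM in normal mice and 2.47, 1.4 and 4.12 in colitis mice (log2 fold change -1.99, SE 0.48, limma adjusted p = 0.0652). Socs2, the feedback inhibitor of growth hormone signalling, was 19.13, 14 and 18.25 FPKM against 4.24, 9.67 and 6.15 (log2 fold change -1.41, SE 0.36, limma adjusted p = 0.0766). Both were close to the limit and did not pass it, and neither group pair overlapped. The growth hormone receptor Ghr, which drives Igf1 transcription in liver, had a log2 fold change of -0.84 (SE 0.27, limma adjusted p = 0.122).

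Among receptors, the 5 tested genes all had negative log2 fold changes (median -0.69). The insulin receptor Insr was 12.26, 13.35 and 11.51 FPKM in normal mice and 6.18, 4.72 and 7.07 in colitis mice (log2 fold change -1.05, SE 0.33, limma adjusted p = 0.120). These groups did not overlap. The 8 adaptors had a median of -0.70 and the 24 genes of the PI3K, Akt, mTOR and Foxo group a median of -0.34, with no gene past the adjusted limit in either. Of the relatives of the binding proteins, 5 of 8 were negative, among them the matricellular Ccn2 (log2 fold change -1.86, limma adjusted p = 0.165).

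Of the proteases that cut binding proteins and their inhibitors, 4 of 6 had positive log2 fold changes (median 0.66), with an unadjusted p of at most 0.05 for 1. That gene, Pappa2, a protease of IGFBP3 and IGFBP5, was 1.45, 1.46 and 1.47 FPKM in normal mice and 2.72, 5.06 and 1.55 in colitis mice (log2 fold change 0.89, SE 0.40, limma adjusted p = 0.232). The lowest colitis mouse stood only just above the normal mice. Htra1, a secreted protease, went the other way, with 13.2 FPKM in normal and 6.54 in colitis mice and no overlap (log2 fold change -1.02, limma adjusted p = 0.249). None of the 6 passed the adjusted limit, and in mice receiving BBR 2 of 6 were positive (median -0.38). Also among the highest pathway genes with a mean of at least 1 FPKM was Eif4ebp1, a repressor of cap-dependent translation (log2 fold change 1.05, limma adjusted p = 0.248).

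**Figure D5:**
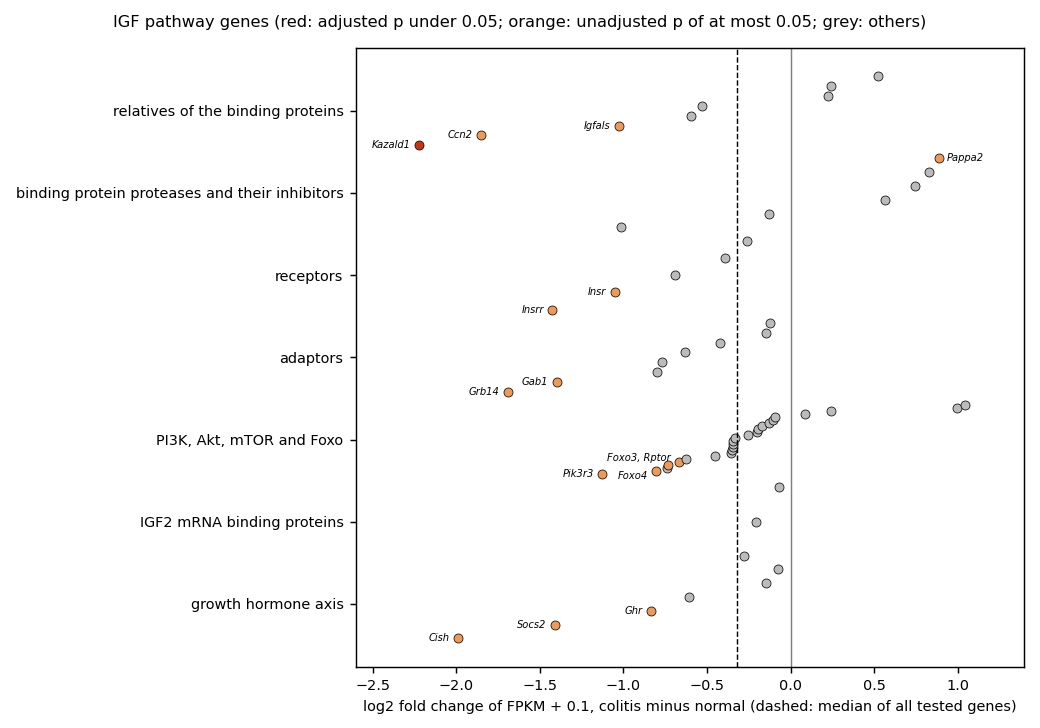
Log2 fold changes of the 60 tested IGF pathway genes in colitis against normal mice, by role, with 1 point per gene and names for those with an unadjusted p of at most 0.05. Kazald1 at -2.22 is the single gene past the adjusted limit, and the dashed line is the median of all tested genes, -0.32.

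In colitis mice receiving BBR against normal mice receiving BBR, 14 of 60 pathway genes did not overlap, beside 20.2% of all genes, and none passed the adjusted limit, beside 0.0392% of all genes. The lowest with a mean of at least 1 FPKM were Ccn2 (log2 fold change -1.97), Kazald1 (-1.91, limma adjusted p = 0.15) and Htra1 (-1.81), and the highest were Pappa2 (1.42), Eif4ebp1 (0.40) and the adaptor Grb2 (0.15).

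For BBR itself no pathway gene passed the adjusted limit by limma. In normal mice 27 of 60 were positive (median -0.05) while the unadjusted p was at most 0.05 for 1 gene, the IGF complex subunit Igfals, beside 1.36% of all genes. In colitis mice 25 of 60 were positive (median -0.02) while the unadjusted p was at most 0.05 for 2, beside 6.39% of all genes. Among the lowest in normal mice, at a mean of at least 1 FPKM, were Ccn3 (log2 fold change -0.96), Stc2 (-0.92) and Ccn1 (-0.80), and among the highest Ccn2 (0.45) and Irs2 (0.43). In colitis mice the low end held Ccn3 (-1.50) and the PAPP-A inhibitor Stc2 (-1.29), and the high end Cish (0.65), Grb14 (0.52) and Insr (0.47). In the interaction the low end held Htra1 (-0.79) and Eif4ebp1 (-0.65), and the high end Cish (1.10), Socs2 (0.62) and Insr (0.59), all with limma adjusted p = 1.00. The 2 genes with an unadjusted p of at most 0.05 in colitis mice were Ccn4, a matricellular relative (log2 fold change -1.36, limma adjusted p = 0.615), and Pappa, which encodes the protease PAPP-A that cuts IGFBP4. Pappa was 0.26, 1.42 and 1.02 FPKM in untreated colitis mice and 0.11, 0.16 and 0.14 in treated ones. The groups did not overlap (log2 fold change -1.85, SE 0.57, limma adjusted p = 0.512, exact permutation p = 0.1). Of the 60 pathway genes it was the 1 without overlap in this comparison, beside 7.08% of all genes. Its treated values lie close to the limit of 3 reads given above for a gene of 2000 bases. Both Igfbp4 and Pappa thus had negative log2 fold changes, and neither passed adjustment. Pappa was named after its values were seen, so nothing is read from this pair. Kazald1, like Igfbp3, overlapped between colitis mice with and without BBR (log2 fold change -0.03, limma adjusted p = 1.00).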

How the data were processed

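Rectal RNA of 12 mice was sequenced by the authors after rRNA removal, and reads were filtered with SOAPnuke. Per the submitters' processing notes, Bowtie2 2.2.5 and RSEM 1.2.12 were used with the mm9 build. The authors deposited a table with 1 number for each gene in each mouse, taken as FPKM from its values. TPM could not be told apart. Values were used as deposited, without further scaling.

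Groups and mouse numbers came from the labels, which do not say whether mice shared a cage or day. log2(FPKM + 0.1) of 15315 genes with a mean of at least 0.1 was fitted with limma 3.58.1 (R 4.3.3), with 1 mean per group over all 12 mice, a trended variance and Benjamini-Hochberg adjustment with a limit of 0.05. Python 3.11.15 with pandas 2.3.3 read promoter windows from RefSeq, whose symbols matched all 9 members (13 windows). The fit was tested on simulated data.

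The members and lists were chosen with earlier results of these data known. Named were all members, the 5 genes most like Igfbp3, the 2 most abundant genes of each marker list used, and pathway genes past the adjusted limit or among the 3 highest or 3 lowest log2 fold changes of a comparison at a mean of at least 1 FPKM. Igfals, Ccn4, Pappa, Ghr, Clec3b, Pi16, Mfap5 and the colitis values of Socs2 and Insr were added after their values were seen. A pathway gene under this rule is not reported here. Alternatives changed the pseudocount, filter, scaling, samples and blocking.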

Additional observations from a re-analysis of the deposited data

How the results depend on the processing

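The 9 members and 60 pathway genes gave counts of 0 past the adjusted limit for BBR in normal mice, BBR in colitis mice and, for members, the interaction under every alternative run. Of 398 alternative values for 21 single-gene differences tested, 0 passed the limit (lowest adjusted p 0.139), and the BBR differences in colitis mice kept their sign for Igfbp2, Igfbp4, Igfbp5, Igfbp6, Igfbp7 and Igf1. Igfbp6 there ranged from 1.09 to 2.17.

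The next counts describe contrasts that chose the members and support nothing. Members past the limit in colitis against normal mice numbered 1 (Igfbp3), 2 when only the groups compared were fitted, 2 with a replicate block, 3 with a block for the mice numbered 4 and 2 without these mice, and 0 to 1 when 1 mouse was left out. Under BBR the count of 1 became 0 with no filter, 0 with columns rescaled to the same total, 0 with only the groups compared and 0 with a replicate block, 3 without the mice numbered 4, and 0 to 3 when 1 mouse was left out (3 without mouse 4 of the treated colitis group). Pathway genes in colitis against normal mice numbered 1, but 2 after quantile normalization, 2 centred on the median, 0 rescaled to the same total, 2 with only the groups compared, 3 with a replicate block, 5 with a block for the mice numbered 4, 3 without these mice, and 0 to 2 when 1 mouse was left out. Over all genes the share called in this comparison was 1.08%, and under these settings, in the same order, 1.68%, 1.21%, 1.2%, 3.19%, 4.79%, 9.22%, 5.25% and 0.0718% to 1.38%. With BBR it was 0.0392%, and 0% to 15% over all alternatives. Under the settings named for BBR, in the same order, it was 0.0113%, 0.0588%, 0%, 0.0457%, 15% and 0% to 14.7%. The 14.7% came without mouse 4 of the treated colitis group. The cause was not tested.

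By the rule that every same-number pair correlate above 0.1, mouse numbers did not pair the samples: 12 of 13 pairs passed it (range 0.078 to 0.751), and 5 of 12 mice correlated best with their own number. The mice numbered 4 did group together (0.357 to 0.751), against 0.078 to 0.386 for the other numbers, and the block for them is given above.

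Small differences changed sign. For BBR in normal mice, Igf1 became 0.028 by quantile normalization, 0.008 centred on the median and 0.183 without the mice numbered 4, which also turned Igf2 to -0.062 and Igfbp4 to 0.022. Leaving out 1 mouse gave ranges of -0.54 to 0.49 for Igf1, -0.30 to 0.48 for Igf1r, -0.41 to 0.67 for Igf2, -0.41 to 0.35 for Igfbp4, -0.34 to 0.61 for Igfbp5 and -0.56 to 0.17 for Igfbp6. For BBR in colitis mice, Igf1r became 0.111 by quantile normalization and 0.071 centred on the median, and Igf2 0.02 and 0.008. Leaving out 1 mouse gave -0.82 to 0.48 for Igf1r and -1.11 to 0.47 for Igf2.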
